A study of Mus musculus with 12 samples.

Results

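Translation initiation and elongation factors were taken from the Ribo-seq libraries of mouse liver as every gene of the table whose symbol begins with Eif1 to Eif6 or with Eef1 or Eef2, leaving out the Eif2ak kinases. This gave 66 of 25029 genes, 51 of them with an Eif symbol (initiation factors, the proteins that act on them, and eIF5A, which acts mainly in elongation) and 15 with an Eef symbol (elongation factors, their modifying enzymes and Eef1e1). Ribo-seq sequences the stretches of mRNA that ribosomes shield from nuclease, and a gene's reads are its ribosome footprints. All mice were male C57BL/6, were put on their diet at 8 weeks of age and were 16 weeks old after 8 weeks on it. The HFD group received a high-fat diet alone (3 Ribo-seq libraries, HFD1 to HFD3) and the LYC group a high-fat diet with lycopene, a carotenoid (3 Ribo-seq libraries, LYC1 to LYC3). Neither group was on a normal diet. Lycopene is named in the titles of the LYC samples, while their treatment label names the high-fat diet alone. Per the labels, material of each group was pooled at some point before sequencing, so p-values measure the spread between these libraries, which may in part be technical.

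An mRNA is translated in steps that these factors carry out. eIF2 brings the initiator tRNA to the small ribosomal subunit as a complex with GTP, and eIF2B recharges eIF2 with GTP. eIF3 is the scaffold on which the small subunit, eIF1, eIF1A and eIF5 come together, and eIF4F (the cap-binding eIF4E, the scaffold eIF4G and the helicase eIF4A) brings in the mRNA. The eIF4E-binding proteins compete with eIF4G for eIF4E and let go of it when mTORC1 phosphorylates them. Once the start codon is found, eEF1A delivers each aminoacyl-tRNA, eEF1B recharges eEF1A, eEF2 moves the ribosome on by a codon, and eIF5A helps it past difficult peptide bonds. In liver, protein synthesis answers to feeding through eIF2 phosphorylation and mTORC1.

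The Ribo-seq libraries held 834410 to 4405541 reads in HFD and 311050 to 412116 reads in LYC. Values are given as scaled RPKM, which is the deposited RPKM (reads per gene length and sequencing depth) divided by the library's TMM factor, edgeR's scaling between libraries. RPKM divides by the whole gene model, although footprints fall mostly on its coding part. The 3 LYC libraries together held a median of 64.0 reads on a tested factor, against 384 in HFD. The median coefficient of variation of the tested factors between libraries was 30.5% in LYC and 13.9% in HFD, and it was larger in LYC for 44 of 49. Over all genes tested the medians were 38.5% in LYC and 16.6% in HFD, and it was larger in LYC for 4842 of 5776. LYC3 was the lowest of the LYC libraries for 36 of these 49 factors. Hepatocyte markers dominated all libraries, with a summed level of 30454 to 41472 scaled RPKM in LYC and 35642 to 39701 in HFD.

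The start codon is where most of these factors act and where a footprint series begins, so the reference sequence around the annotated start codon is shown for 6 of the 8 factors that rose and for 4 others. Each line runs 5′ to 3′ from 12 bases before the start codon, with the start codon in capitals, and comes from the GENCODE M21 transcripts on GRCm38. Eif4g2 and Eif1 are shown for their starts, Eef2 as the elongation factor that moves the ribosome, and Eif4ebp2 as the binding protein with the lowest fold change.
Eif4a1: attctaaggatcATGtctgc
Eif2b3: agctttataaaaATGgagtt
Eif2s2: cgaactacagccATGtccgg
Eif3b: cagcgcgggcccATGcagga
Eif5a: aagcctcttaaaATGgcaga
Eif3c: agcgccgtcgccATGtcgcg
Eif4ebp2: cgcgtcggagccATGtccgc
Eif4g2: caagccgccaaaGTGgagag
Eif1: gaatcgtatcgtATGtccgc
Eef2: ccatccgccaccATGgtgaa

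The sequences lie on the strands given here, and the coordinates are those of the start codons. They are at chr11:69672299-69672301 (minus strand) for Eif4a1, chr4:117022165-117022167 (plus) for Eif2b3, chr2:154892702-154892704 (minus) for Eif2s2, chr5:140419361-140419363 (plus) for Eif3b, chr11:69919313-69919315 (minus) for Eif5a and chr7:126566177-126566179 (minus) for Eif3c. They are at chr10:61452544-61452546 (minus) for Eif4ebp2, chr7:111081545-111081547 (minus) for Eif4g2, chr11:100320130-100320132 (plus) for Eif1 and chr10:81176727-81176729 (plus) for Eef2. A purine 3 bases before the start codon and a G right after it are the main parts of a favourable (Kozak) context. Eef2 had both. The start codon of Eif4g2 was GTG, the non-ATG start this eIF4G relative is known for. Eif1, whose product sets how strictly start codons are chosen, had neither favourable base. Of 64 factors with an annotated start, 56 (87.5%) had the purine and 36 (56.2%) the G, against 84.9% and 49.7% of 19435 coding genes. Both bases were present in 33 factors (51.6%), against 42.0% of these coding genes. Of the 8 factors that rose, 7 had the purine and 3 the G.

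Of the 66 factors, 49 had enough reads to be tested, and 8 rose in LYC and none fell. A call needed an adjusted p below 0.05 in limma's two-sided test on log2(scaled RPKM + 1), with the Benjamini-Hochberg adjustment over all 5776 genes tested. Over all of these genes, 6.49% were called higher and 5.04% lower. The factors that rose were Eif4ebp3, Eif4a1, Eif2b3, Eif2s2, Eif3b, Eif5a, Eif3c and Eif3j2. With the limits in the study's results section (a log2 fold change beyond 1 either way, unadjusted p under 0.01, for which its methods state a stricter p), 6 factors were higher and 0 lower, against 6.99% and 6.32% of all genes. At an unadjusted p below 0.05 in limma 19 factors were higher and 2 lower, where 15.0% of all genes were higher and 15.0% lower. In these bulk footprint levels, more mRNA and more ribosomes per mRNA cannot be told apart, nor can fewer cells of a type and less RNA per cell.

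The fold changes of the tested factors leaned upward. Their median log2 fold change, LYC minus HFD, was 0.51, against -0.10 for all genes tested, and 40 of 49 were positive. In 20 of the 49 every LYC library was above every HFD library and in 2 every LYC library was below, against 18.7% and 18.9% of all genes tested. For a single factor with 3 libraries against 3, an exact permutation test cannot give a p below 0.1. By symbol, the median was 0.59 over 44 Eif genes, Eif5a among them, and -0.12 over 5 Eef genes, which is a description of counts and not a test of their difference. The filter on low reads bears on these figures. Eif4ebp3 and Eif2b3 reached its minimum through the LYC libraries alone, so they had to be higher there to be tested. Of the 39 factors that reached it in all 6 libraries 6 rose and 0 fell, with a median log2 fold change of 0.59, where 7.99% of 3204 genes were called higher and the median was 0.10.

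**Figure D1:**
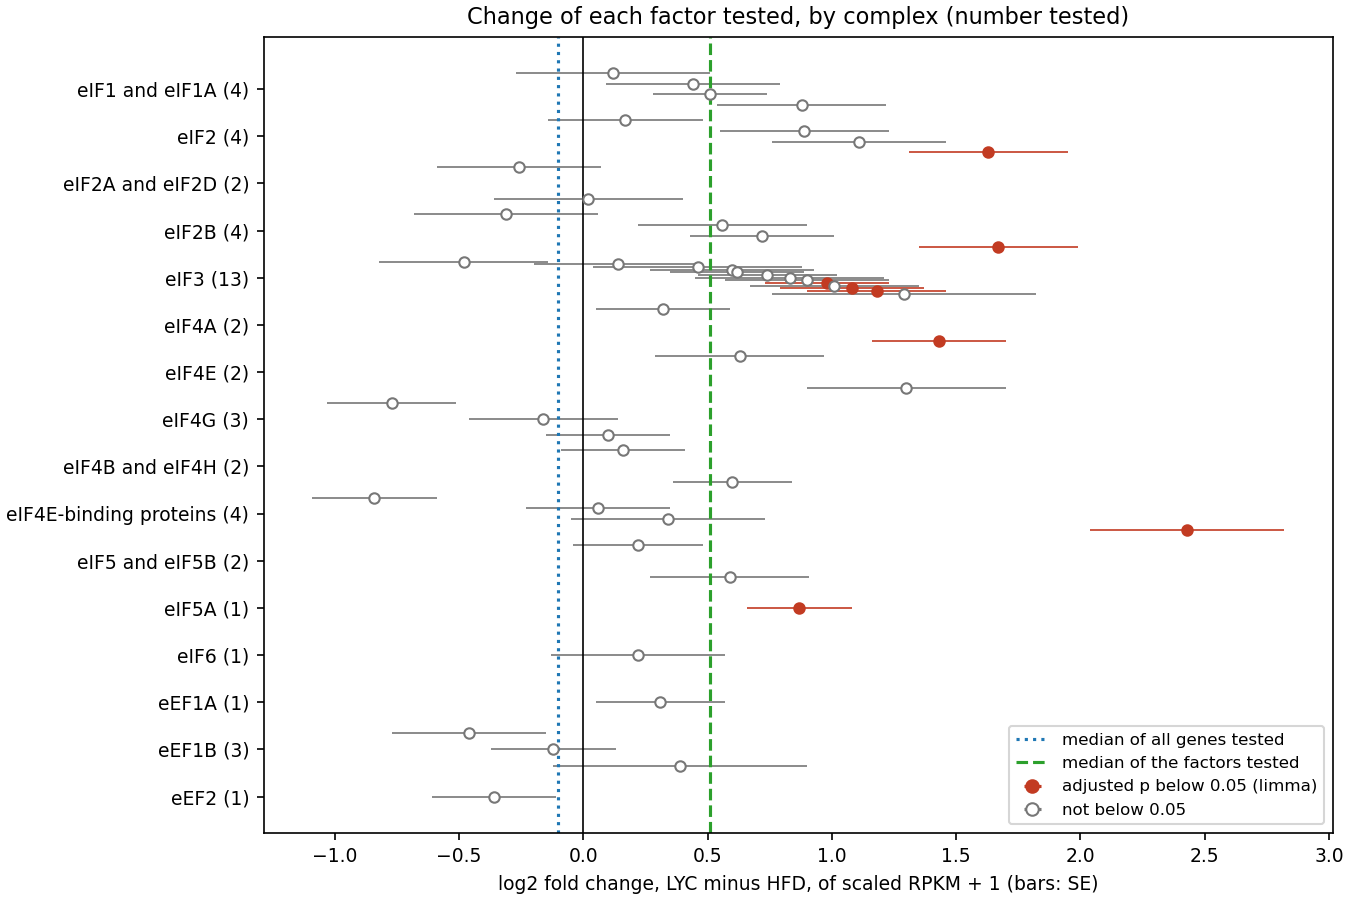
Log2 fold change of each of the 49 factors tested (points, x axis, LYC minus HFD on the scale of scaled RPKM + 1) with its SE (bars), by complex (y axis). Filled points are the 8 factors with a limma adjusted p below 0.05, all to the right of 0, and the dashed and dotted lines mark the medians of the factors (0.51) and of all genes tested (-0.10).

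The count of calls depended on the tool and on the libraries kept. Whole read numbers were worked back from the RPKM steps. On these, edgeR's quasi-likelihood test called 13 factors higher and 0 lower, against 551 (9.54%) and 400 (6.93%) of all genes, and DESeq2 called 14 higher and 2 lower, against 11.3% and 7.62%. The 5 factors that edgeR added were Eif4e, Eif3g, Eif3d, Eif3a and Eif2s1. The 14 of DESeq2 were those 13 and Eif2s3y. Without LYC3, limma called 13 factors higher and 1 lower, against 8.87% and 9.93% of the 7249 genes then tested. Without HFD1, HFD2 or HFD3 it called 1, Eif4ebp3, against 3.35%, 3.04% and 2.51% of the genes then tested (4710 to 4902), and the adjusted p of the other 7 was 0.0511 to 0.177. Without LYC1, Eif2s2, Eif3c, Eif3j2 and Eif5a were lost (adjusted p = 0.0512, 0.0590, 0.101 and 0.0651) and Eef1e1 was gained, against 3.25% of the genes then tested. Without LYC2, Eif3c was lost (adjusted p = 0.0638), and without LYC3, Eif3j2 (adjusted p = 0.0532). Scaled by total reads, 4 factors were higher and 2 lower, against 3.70% and 9.33% of all genes.

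The eIF2 complex was higher in LYC at its β subunit. Eif2s2, which encodes eIF2β, the subunit that contacts eIF5 and eIF2B, stood at 16.9, 15.1 and 13.9 scaled RPKM in HFD1 to HFD3 and at 63.0, 59.9 and 31.7 in LYC1 to LYC3. Every LYC library was above every HFD library, and LYC3 was the lowest of them. The mean rose from 15.3 ± 1.53 to 51.5 ± 17.2 (SD, n = 3), and the log2 fold change was 1.63 with an SE of 0.32 (limma adjusted p = 0.0160). Eif2s1 encodes eIF2α, whose phosphorylation shuts eIF2 down. It stood at 10.6, 5.70 and 6.64 in HFD and 17.1, 23.4 and 12.6 in LYC, without overlap, and its log2 fold change of 1.11 missed the threshold (limma adjusted p = 0.0752).

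eIF2γ, the subunit that binds GTP and the tRNA, has 2 genes in the mouse, on the X and the Y chromosome, and both were read in these male livers. The X copy Eif2s3x had means of 21.3 ± 1.94 (HFD) and 25 ± 7.77 (LYC) with overlapping libraries. The Y copy Eif2s3y stood at 16.5, 16.9 and 20.9 in HFD and at 26.6, 55.6 and 26.8 in LYC, without overlap, and missed the threshold (log2 fold change 0.89, limma adjusted p = 0.123). DESeq2 called it higher (log2 fold change 1.02, adjusted p = 0.0460). Per gene length, the ratio of the X to the Y copy was 1.09 to 1.31 in the HFD libraries and 0.562 to 1.03 in the LYC libraries. Per coding length the ratio of the means was 2.37 in HFD and 1.38 in LYC, with the X copy the higher in both. The groups of ratios did not overlap (exact permutation p = 0.1, the smallest possible). The products are close to identical, and how the counting shared reads between the copies is not given in the sources used here.

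Of eIF2B, the exchange factor of eIF2, the γ subunit Eif2b3 rose. It stood at 1.95, 2.12 and 1.61 scaled RPKM in HFD and 11.0, 6.66 and 7.35 in LYC, on 24, 51 and 6 reads against 15, 9 and 12. All LYC libraries were more than 3 times the highest HFD library. The log2 fold change was 1.67 with an SE of 0.32 (limma adjusted p = 0.0159), but the gene was tested only because its LYC reads reached the filter's minimum. It was the same with no filter on low reads, where the call was lost (adjusted p = 0.0505), and with a filter on the mean over all libraries (adjusted p = 0.0316). The catalytic ε subunit Eif2b5 did not follow, at 13.1 ± 2.67 in HFD and 10.8 ± 4.41 in LYC with overlapping libraries. Eif2b1 and Eif2b4 had log2 fold changes of 0.72 and 0.56 (limma adjusted p = 0.143 and 0.315), and Eif2b2 was not tested.

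eIF3 gave the most members. Of its 14 genes 13 were tested, 3 rose, 0 fell and 12 had a positive log2 fold change, with a median of 0.83 and a range of -0.48 to 1.29, where 6.49% of all genes were called higher and 5.04% lower. At an unadjusted p below 0.05 in limma 8 were higher and 0 lower, with 15.0% of all genes in each direction. Eif3b, the subunit that holds the eIF3g and eIF3i arm, stood at 21.7, 20.9 and 21.2 in HFD and 38.4, 69.1 and 45.6 in LYC. Its HFD libraries were nearly equal and all below the LYC libraries (log2 fold change 1.18, SE 0.28, limma adjusted p = 0.0310). Eif3c, the subunit that binds eIF1 and eIF5, stood at 32.1, 39.8 and 36.7 in HFD and 62.6, 91.1 and 65.4 in LYC, without overlap (log2 fold change 0.98, SE 0.25, limma adjusted p = 0.0393). The Eif3c call was kept in 8 of the 12 alternatives that kept all libraries, and that of Eif3b in 11. Scaled by total reads, the limma adjusted p was 0.168 for Eif3c and 0.104 for Eif3b.

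Eif3j2, a gene of the loosely bound subunit eIF3j, stood at 14.6, 11.0 and 11.1 in HFD and 32.8, 21.3 and 27.5 in LYC. All LYC libraries lay above HFD (log2 fold change 1.08, SE 0.29, limma adjusted p = 0.0439), and this call was lost in 5 of the 12 alternatives that kept all libraries, with adjusted p-values of up to 0.104. Its exons overlap those of the annotated gene Gm3650 and it has a near-identical copy, Eif3j1, so its reads are uncertain. Eif3j1 itself held 13 reads in HFD and 3 in LYC and was not tested. Among subunits that missed the threshold, Eif3d, a cap-binding subunit, stood at 18.6, 17.7 and 17.0 in HFD and 49.7, 45.3 and 22.2 in LYC (limma adjusted p = 0.0850). Eif3a, the largest subunit and the scaffold of the complex, had means of 15.5 ± 2.45 and 30.9 ± 11.7 scaled RPKM without overlap (limma adjusted p = 0.117). Eif3g, an RNA-binding subunit, was at 56.3 and 92.9 in LYC1 and LYC2 and at 17.4 in LYC3, inside the HFD range of 15.8 to 21.8.

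The exception was Eif3i, a WD-repeat subunit and the highest of eIF3 in HFD. It stood at 48.5, 41.3 and 58.7 in HFD and 39.9, 49.1 and 21.5 in LYC, with overlap and a log2 fold change of -0.48 (limma adjusted p = 0.373). Over the 13 subunits the mean level per gene length spanned 4.05-fold in HFD, from Eif3j2 to Eif3i, and 2.68-fold in LYC, from Eif3j2 to Eif3c. Per coding length the spans were 2.84-fold in HFD and 2.26-fold in LYC. The summed level of eIF3 was 331 to 356 scaled RPKM in HFD and 633, 702 and 430 in LYC1, LYC2 and LYC3, so LYC3 lay closer to HFD than the other LYC libraries did.

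**Figure D2:**
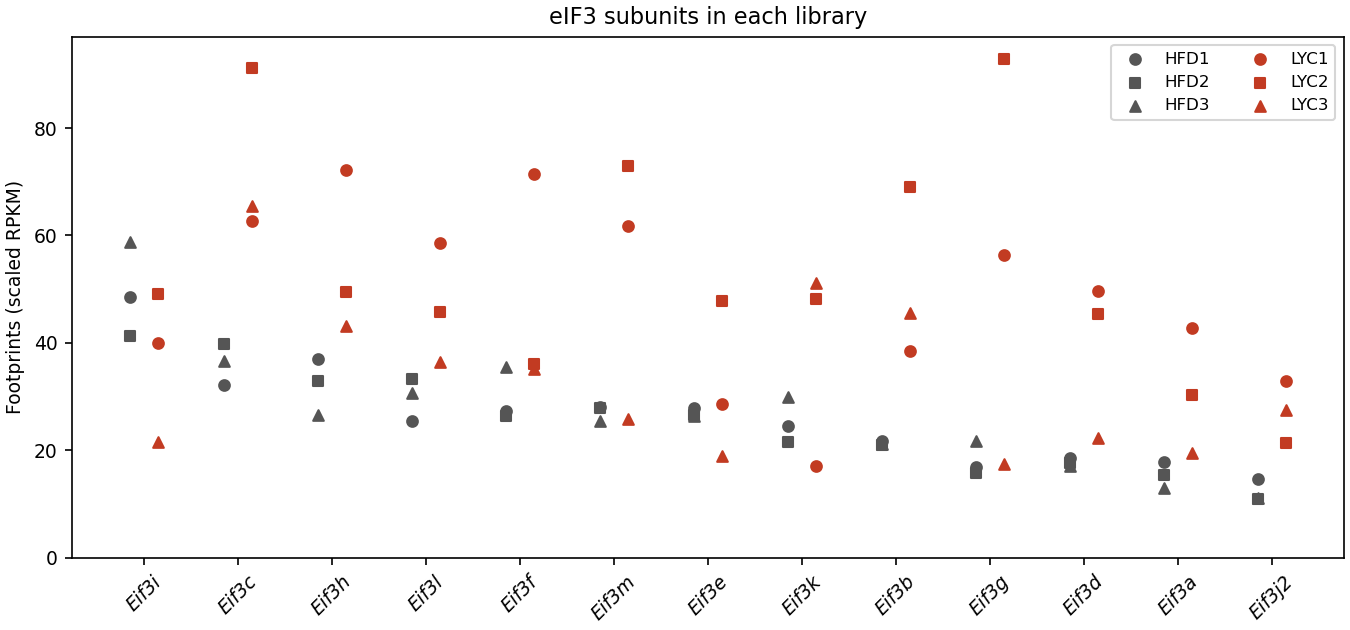
Footprint levels (y axis, scaled RPKM) of the 13 tested eIF3 subunits (x axis, from the highest to the lowest mean in HFD) in each of the 6 libraries. The LYC points of Eif3c, Eif3h, Eif3l, Eif3b, Eif3d, Eif3a and Eif3j2 lie above all HFD points of the same gene, while LYC3 falls inside or below HFD for Eif3i, Eif3f, Eif3m, Eif3e and Eif3g.

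In eIF4F the helicase Eif4a1 rose and the scaffold did not. Eif4a1, which encodes the main RNA helicase that unwinds mRNA leaders, stood at 71.4, 64.8 and 77.3 in HFD and 246, 213 and 137 in LYC. All LYC libraries were well above HFD and LYC3 was the lowest of them. The mean went from 71.2 ± 6.28 in HFD to 199 ± 55.8 in LYC (log2 fold change 1.43, SE 0.27, limma adjusted p = 0.0146). This call was kept in 12 of 12 alternatives that kept all libraries. Its paralog Eif4a2, which encodes a close relative of the same helicase, stood at 69.9, 52.5 and 46.6 in HFD and 78.7, 54.0 and 79.4 in LYC, with overlap (limma adjusted p = 0.456). The ratio of Eif4a1 to Eif4a2 was 1.02, 1.23 and 1.66 in HFD and 3.12, 3.94 and 1.72 in LYC. All LYC ratios were above all HFD ratios, though LYC3 lay just above HFD3 (exact permutation p = 0.1). Eif4a3, the helicase of the exon junction complex, was not tested.

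Eif4e, the cap-binding factor itself, stood at 4.14, 3.73 and 3.48 in HFD and 12, 17.3 and 5.82 in LYC. All LYC libraries were above all HFD libraries, and the log2 fold change of 1.30 missed the threshold in limma (adjusted p = 0.0716) and passed it in edgeR (adjusted p = 0.0131). Eif4e2, a cap-binding repressor of translation and the highest of its family in HFD, was at 9.46 ± 1.51 in HFD and 15.7 ± 5.11 in LYC with overlap. The scaffold Eif4g1 was at 63.7 ± 10.1 in HFD and 68.7 ± 13.4 in LYC (log2 fold change 0.10, SE 0.25, limma adjusted p = 0.819). Eif4g2, the eIF4G relative that lacks the eIF4E-binding part, stood at 47.8, 65.0 and 52.2 in HFD and 39.7, 29.3 and 26.7 in LYC. Every LYC library was below every HFD library, and the log2 fold change of -0.77 missed the threshold (limma adjusted p = 0.0899). It was called lower by DESeq2 (adjusted p = 0.0190), when scaled by total reads (limma adjusted p = 0.0443) and with TMM over all genes listed (limma adjusted p = 0.0491). The helicase helper Eif4h was at 37.7 ± 4.22 in HFD and 57.8 ± 8.88 in LYC without overlap (limma adjusted p = 0.137), and Eif4b, a phosphorylation target of S6 kinase, at 35.1 ± 4.96 and 39.3 ± 6.74.

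Of the 4 eIF4E-binding proteins, all tested, 1 rose and 0 fell, where 6.49% of all genes were called higher and 5.04% lower. Eif4ebp3 had the largest fold change of all factors tested. It stood at 6.72, 3.90 and 9.09 scaled RPKM in HFD and 60.5, 30.6 and 30.0 in LYC, on 22, 25 and 9 reads against 22, 11 and 13. The lowest LYC library was more than 3 times the highest HFD library. The mean was 6.57 ± 2.60 in HFD and 40.4 ± 17.4 in LYC, 6.14-fold higher, and the log2 fold change was 2.43 with an SE of 0.39 (limma adjusted p = 0.00776). It was tested only because its LYC reads reached the filter's minimum, so it had to be higher in LYC. Under filters not tied to a group its adjusted p was 0.0276 (no filter) and 0.0124 (a mean of 10 reads over all libraries). Eif4ebp2, the highest binding protein in HFD, stood at 48.4, 63.1 and 63.8 in HFD and 35.4, 26.9 and 34.2 in LYC. Its LYC libraries were all lower, and the log2 fold change of -0.84 missed the threshold (SE 0.25, limma adjusted p = 0.0619), though it was called lower by DESeq2 and when scaled by total reads. Eif4ebp1, the best-known mTORC1 target of the 3, was at 14.1 ± 1.79 (HFD) and 19.8 ± 11.1 (LYC) with overlap. The ratio of Eif4ebp2 to Eif4ebp1 was 3.97, 4.01 and 4.49 in HFD and 1.10, 1.65 and 3.16 in LYC, without overlap (exact permutation p = 0.1). Eif4enif1, a transporter of eIF4E into the nucleus, stood at 4.37 ± 0.171 in HFD and 4.59 ± 0.473 in LYC.

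**Figure D3:**
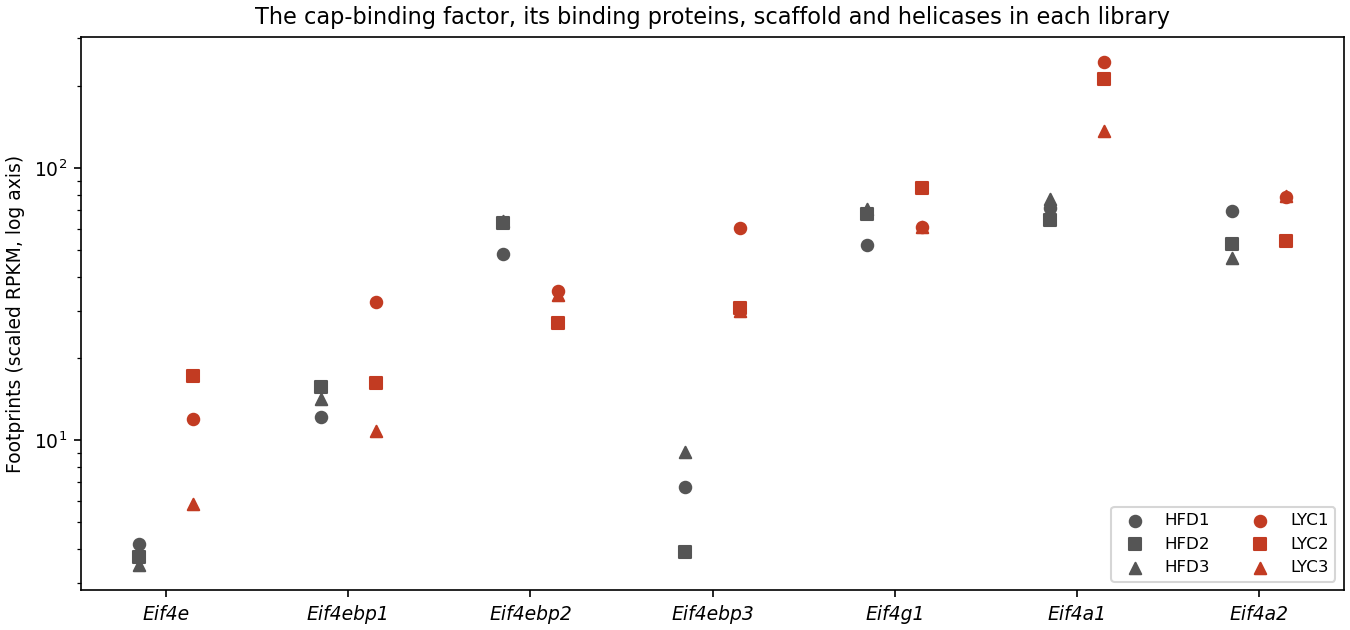
Footprint levels (y axis, scaled RPKM, log axis) of eIF4E, its 3 binding proteins, the scaffold Eif4g1 and the helicases Eif4a1 and Eif4a2 (x axis) in each of the 6 libraries. Eif4ebp3 goes from 3.90 to 9.09 in HFD to 30.0 to 60.5 in LYC, while all LYC points of Eif4ebp2 lie below its HFD points.

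Eif5a, which encodes the hypusine-bearing factor that relieves stalled ribosomes, rose. It stood at 146, 127 and 151 in HFD and 248, 269 and 258 in LYC. Both groups were tight and did not overlap (log2 fold change 0.87, SE 0.21, limma adjusted p = 0.0321), and the call was lost in 4 of 12 alternatives that kept all libraries, among them the removal of a length trend (adjusted p = 0.0578). Exons of Eif5a overlap those of Gps2, and whether the counting used the strand is not given in the sources used here. Eif5, the GTPase activator of eIF2, was at 42.9 ± 1.79 in HFD and 51.2 ± 14.2 in LYC, and Eif5b, which joins the subunits, at 4.61 ± 0.186 and 7.64 ± 2.25. The Eif5b libraries did not overlap (log2 fold change 0.59, limma adjusted p = 0.249). Eif6, which keeps the large subunit apart from the small, was at 23.3 ± 0.779 and 29.4 ± 14.0.

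Eif1, the highest of the start-selection factors, stood at 158, 157 and 147 in HFD and 263, 218 and 183 in LYC. Again all LYC libraries were the higher ones, and the log2 fold change of 0.51 missed the threshold (limma adjusted p = 0.173). None of the other 3 tested genes of the eIF1 and eIF1A group passed the threshold. Their log2 fold changes were 0.12 (Eif1a), 0.44 (Eif1ax) and 0.88 (Eif1ad), and Eif1b was not tested. Eif2a and Eif2d, alternative carriers of the initiator tRNA, had log2 fold changes of -0.26 and 0.02.

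**Figure D4:**
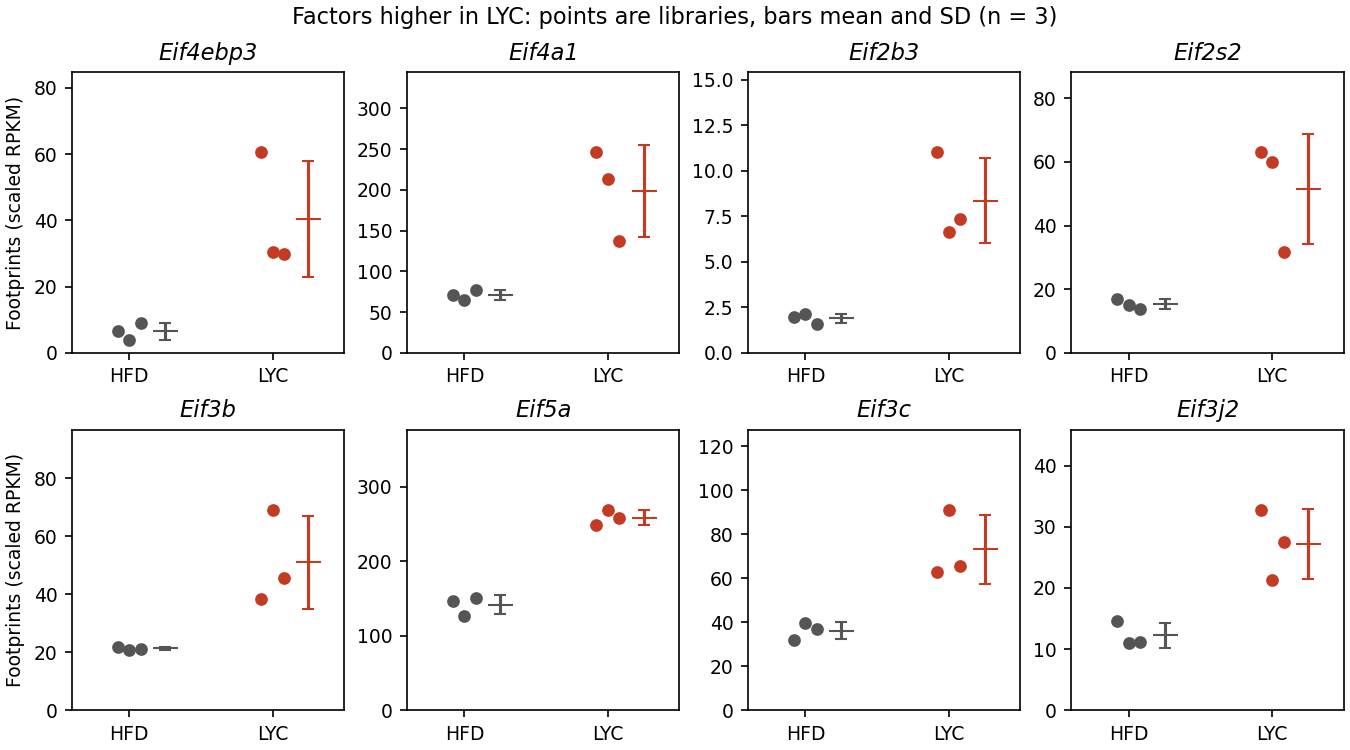
Footprint levels (y axis, scaled RPKM from 0) of the 8 factors that rose, in HFD and LYC (x axis), with 1 point per library and the mean and SD beside them (n = 3). In each panel the lowest LYC library is above the highest HFD library, with the smallest ratio between them for Eif3j2, at 21.3 in LYC2 and 14.6 in HFD1.

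Of the 15 Eef genes 5 were tested and none of these rose or fell. With all libraries and the filter on low reads there were 0 calls in limma, edgeR or DESeq2 and 0 at an unadjusted p below 0.05 in limma. Over all genes, limma called 6.49% higher and 5.04% lower, edgeR 9.54% and 6.93%, and DESeq2 11.3% and 7.62%. At the unadjusted p it was 15.0% in each direction, so 0 calls among 5 genes say little. Eef1a1, which encodes the tRNA carrier and was the most heavily read factor, stood at 1110, 1067 and 1113 scaled RPKM in HFD and 1684, 1452 and 1028 in LYC. LYC3 lay below all HFD libraries and LYC1 and LYC2 above them (log2 fold change 0.31, SE 0.26, limma adjusted p = 0.463). It alone made up 34.8% to 40.1% of the summed level of the 66 factors. Eef2, the translocase, stood at 262, 297 and 376 in HFD and 296, 219 and 215 in LYC, with overlap (log2 fold change -0.36, SE 0.25, limma adjusted p = 0.371). The exchange factors of eEF1A also overlapped: Eef1b2 was at 34.1 ± 3.58 in HFD and 31.4 ± 5.13 in LYC, Eef1g at 34.7 ± 7.18 and 25.3 ± 7.29, and Eef1d at 19.8 ± 5.02 and 31.6 ± 25.5. The wide SD of Eef1d came from LYC2, at 60.6 against 21.3 and 13.0.

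The share of the Eef genes in the summed level of all 66 was 53.6%, 53.7% and 54.7% in HFD and 48.4%, 45.4% and 45.3% in LYC. Every HFD share was above every LYC share, and the share does not depend on how libraries are scaled. The Eif genes made up the rest, 45.3% to 46.4% in HFD and 51.6% to 54.7% in LYC. The summed level of all 66 was 2711 to 2942 scaled RPKM in HFD and 4290, 4030 and 2957 in LYC1, LYC2 and LYC3. LYC3 was again the library nearest to HFD.

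The 17 factors that were not tested had at most 17 reads in LYC, and 10 of them 3 or fewer. They include paralogs known mainly from other tissues. Eef1a2, the eEF1A of muscle and neurons, had 20 reads in HFD and 1 in LYC, and Eif5a2 had 3 and 1. Eef1a1 was 725 times Eef1a2 in the HFD means per coding length and 3227 times per gene length, as their gene models differ in length. On 15, 3 and 2 reads of Eef1a2, the ratio per gene length was 1681, 15802 and 3818 in HFD1 to HFD3. Eef1e1, a subunit of the aminoacyl-tRNA synthetase complex, was at 3.80 to 5.41 in HFD and at 12.2, 12.3 and 23 in LYC, on only 4, 4 and 9 LYC reads. Without LYC1 it passed the filter and was called higher (log2 fold change 1.70, limma adjusted p = 0.0481). Its 16, 22 and 4 HFD reads lay below the main filter's HFD minima of 44, 71 and 14. It could thus pass only through LYC libraries and had to be higher there. With no filter on low reads it missed the threshold (log2 fold change 1.55, limma adjusted p = 0.0509). Eef1akmt2, a lysine methyltransferase of eEF1A, had 25 reads in HFD and 0 in LYC. It was the factor called lower when no filter on low reads was used (log2 fold change -1.77, limma adjusted p = 0.0271). Its HFD mean of 2.42 scaled RPKM was below the 2.77 that 3 reads over the LYC libraries would give, so the 0 reads alone do not resolve a difference. Of the other methyltransferases, Eef1akmt4 and Eef2kmt were the highest of their groups in HFD. They stood at 4.59 and 1.86 there and at 3.06 and 0.413 in LYC, with overlap. Eef1akmt1 and Eef1aknmt went the other way, from 3.90 and 1.92 in HFD to 6.05 and 2.40 in LYC, also with overlap.

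Genes that control these factors were counted in the same fit, in which 3178 of all 5776 genes had a negative fold change. Of the eIF2α kinases and the other genes of the integrated stress response, 6 of 10 were tested, and their log2 fold changes ran from -0.72 to -0.46, with no call by limma, edgeR or DESeq2 and 1 lower at an unadjusted p below 0.05 in limma. The value of Eif2ak3, the kinase PERK, was -0.49 with LYC2 listed at 0, while its mean was 11.3 in HFD and 18.1 in LYC. The list of mTORC1, its regulators, S6 kinase and the MNK kinases held 19 genes, with Rps6, Pdcd4 and Larp1 on it too. Of these 19 genes 13 were tested, and limma called 0 higher and 1 lower. Their median was -0.10, equal to that of all genes. At an unadjusted p below 0.05 in limma 2 were higher and 2 lower, against 15.0% of all genes in each direction. edgeR called 1 higher and 1 lower (9.54% and 6.93% of all genes) and DESeq2 2 higher and 1 lower (11.3% and 7.62%). Mknk2, a kinase of eIF4E, stood at 15.5, 18.9 and 21.2 in HFD against 28.5, 25.1 and 57.7 in LYC. Its groups did not overlap, with an adjusted p of 0.138 in limma, 0.0438 in edgeR and 0.0365 in DESeq2. Rps6, a ribosomal protein gene also counted with those below, was the other gene higher at the unadjusted p and in DESeq2. Its log2 fold change was 0.7 in limma (adjusted p = 0.0895 in limma, 0.0599 in edgeR and 0.0192 in DESeq2). The gene called lower was Larp1, which binds the leaders of ribosomal protein mRNAs under mTORC1 control. It stood at 20.2, 22.2 and 23.9 in HFD and 9.57, 9.68 and 11.6 in LYC, without overlap (log2 fold change -1.03, limma adjusted p = 0.0387). Of 17 partner factors, among them poly(A)-binding, release and recycling proteins, 12 were tested, 10 were positive, and 1 was called higher and 1 lower, against 6.49% and 5.04% of all genes. Denr, which recycles and reloads small subunits, rose from 5.55 ± 0.306 to 19.6 ± 10.4 (limma adjusted p = 0.0358). In HFD only HFD2 reached the filter's minimum, so Denr was tested only because its LYC libraries reached it. Eefsec, the elongation factor for selenocysteine, was at 9.80 ± 1.34 in HFD and 2.94 ± 2.08 in LYC (limma adjusted p = 0.0468), on 2, 4 and 1 reads in LYC. It was tested only because its HFD reads reached the filter's minimum, so it had to be lower in LYC.

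Ribosomal proteins gave a background for the same machinery: of 78 tested 7 rose and 1 fell in limma, against 6.49% and 5.04% of all genes, with a median log2 fold change of 0.36. edgeR called 9 higher and 1 lower (9.54% and 6.93% of all genes) and DESeq2 15 higher and 1 lower (11.3% and 7.62%), and at an unadjusted p below 0.05 in limma 27 were higher and 6 lower, against 15.0% of all genes in each direction. The 9 factors whose mRNAs begin with a terminal oligopyrimidine tract, which are translated with ribosomal protein mRNAs, had a median of 0.16 and no call in limma, edgeR or DESeq2, with 1 higher at an unadjusted p below 0.05 in limma. These 9 were Eef1a1, Eef1b2, Eef1d, Eef1g, Eef2, Eif3e, Eif3f, Eif3h and Eif4b. Length was only weakly related to the change among the 49 factors, with a Spearman rho of -0.08 across genes, against -0.24 over all genes tested. Genes are not independent replicates.

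Several factor genes hold small RNA genes in their introns, none of which overlaps an exon of its host. Of 20 such genes, 11 were found in the table, 7 of them snoRNAs. The snoRNA Snord37 in Eef2 stood at 411, 207 and 110 scaled RPKM in HFD and 221157, 48335 and 112783 in LYC, 525-fold in the means, against 0.781-fold for Eef2 itself. Snord2 in Eif4a2 was 92.1-fold higher, against 1.25-fold for its host. The other snoRNAs found rose less, from 3.58-fold (Snord66) to 10.2-fold (Snora41) in the means, and the libraries of Snora19 overlapped. With TMM factors computed without small RNA genes the same 8 factors were called.

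Markers of other liver cells were low beside those of hepatocytes. Kupffer cell markers summed to 97.7 to 109 scaled RPKM in HFD and 107 to 163 in LYC (6 of 6 read in some library), endothelial markers to 54.8 to 75.3 and 15.5 to 123 (5 of 5), and stellate cell markers to 80.6 to 151 and 101 to 132 (5 of 5). Cholangiocyte markers (4 of 4) reached at most 4.94 and lymphocyte markers (4 of 4) 3.62. Erythrocyte markers summed to 605 to 1133 in HFD and 917 to 1081 in LYC (5 of 5). Of the tested markers Tat, a hepatocyte gene under glucocorticoid control, and Alas2, the haem enzyme of erythroid cells, rose (limma adjusted p = 0.0185 and 0.0378). None fell, where limma called 6.49% of all genes higher and 5.04% lower. Of 8 hepatocyte markers tested 5 had a positive and 3 a negative log2 fold change, and of 3 erythrocyte markers 2 and 1. Of 5 endothelial markers tested 1 was positive and 4 were negative, of 5 Kupffer markers 2 and 3, and of 4 stellate markers 2 and 2. edgeR and DESeq2 each called 2 hepatocyte, 1 Kupffer and 1 erythrocyte marker higher and 0 lower. Of all genes edgeR called 9.54% higher and 6.93% lower, and DESeq2 11.3% and 7.62%. Whether these shifts had a part in the changes of the factors was not tested.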

How the data were processed

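The authors deposited a table of RPKM per gene for 6 Ribo-seq libraries, and a table of read counts and RPKM for 6 libraries labelled RNA-seq. Per the labels and the study's methods, reads were cleaned with cutadapt and Bowtie2, aligned to GRCm38/mm10 with STAR and quantified with FANSE2. Versions and the annotation are not given in the sources used here. Of the second table only gene lengths were used (counts against RPKM), and no translational efficiency was formed: across 5732 genes (not independent replicates), each Ribo-seq library had a Pearson r of log2(RPKM + 1) of 0.970 to 0.976 with a library labelled RNA-seq, and 0.888 to 0.955 with the next one. Reads behind each RPKM were recovered from the RPKM steps to within 0.02 reads plus the rounding of the deposited value. The lengths of the second table gave whole reads for 70.7% of genes above 0, and a length was fitted for the rest. Where several lengths fitted, the length nearest to that of the second table was used, or the shortest where that table gave none. In the latter case the true reads may be a multiple of those used. Of 25033 rows, 4 that shared a date-like name were left out.

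Genes were kept by edgeR's filterByExpr on recovered reads (3 libraries with at least 14 to 71 reads in HFD or 5 to 7 in LYC). Scaled RPKM + 1 was tested on the log2 scale with limma (trend), two-sided, and Benjamini-Hochberg adjusted. The pseudocount understates changes of low genes. Group and replicate numbers come from the labels. Alternatives were other scalings, pseudocounts, filters, a replicate block, a length correction, edgeR and DESeq2 on recovered reads, and leaving out each library. The fits were tested on simulated data. Members and lists were chosen with earlier results of these data known, so counts over lists support nothing independently. Named by rule were the factors called, the factor with the highest HFD mean in each complex and 6 paralog pairs. Other factors and list genes named were chosen after their values were seen. The tools were limma 3.58.1 with edgeR 4.0.16 (in R 4.3.3), scipy 1.17.1 (in Python 3.11.15) and DESeq2 1.42.0.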

Additional observations from a re-analysis of the deposited data

How the results depend on the processing

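The number of factors higher in LYC, 8 as reported, was 4 when scaled by total reads, 5 with TMM factors over all genes listed (added after seeing the data), 5 with no filter on low reads, 13 with edgeR and 14 with DESeq2. The number lower, 0 as reported, was 2, 2, 1, 0 and 2 in the same order. The 2 were Eif4ebp2 and Eif4g2, and the 1 was Eef1akmt2. Of all genes, 5.52% were called higher and 7.32% lower with TMM over all genes listed, and 1.96% and 3.84% with no filter. Leaving out 1 library at a time gave 1 to 13 higher and 0 to 1 lower. It was 1 higher without HFD1, HFD2 or HFD3, 5 without LYC1 (Eef1e1 among them) and 13 without LYC3. The median log2 fold change of 0.51 was 0.21 when scaled by total reads, where the median of all genes was -0.36, so its distance from all genes, 0.61 as reported, was 0.58. With 1 library left out it was 0.35 to 0.66. Total-read scaling and TMM over all genes listed thus shift every factor down against the values in the text.

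With the replicate block, 5 factors were higher and 0 lower, and Eif3c, Eif3j2 and Eif5a were lost (adjusted p = 0.0562, 0.0667 and 0.0577). Of all genes, 5.71% were called higher and 4.00% lower in this fit. The numbers do not pair the libraries: the correlations of same-numbered libraries were 0.11, 0.03 and 0.01, and the block is a number without a meaning in the design.

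For 25 named factors tested, 444 further values were computed, of which 42 lost a call, 5 gained one and 15 changed sign. Factors that changed sign were called in no setting. With total-read scaling these were Eif2d (-0.24), Eif2s3x (-0.11), Eif4g1 (-0.19), Eif5 (-0.07) and Eif6 (-0.06), and of the other factors tested Eif1a (-0.16), Eif3e (-0.15), Eif4b (-0.13) and Eif4enif1 (-0.19). With TMM over all genes listed they were Eif2d (-0.12) and Eif4g1 (-0.05), with Eif1a (-0.03), Eif3e (-0.01) and Eif4enif1 (-0.07), and with the length trend removed Eif2d (-0.01) and Eif4g3 (0.09). With 1 library left out the log2 fold change was -0.24 to 0.14 for Eif2d, -0.02 to 0.42 for Eif2s3x, -0.07 to 0.66 for Eif4ebp1, -0.06 to 0.17 for Eif4g1, -0.00 to 0.36 for Eif5 and -0.14 to 0.50 for Eif6. Of the others, it turned negative without LYC1 for Eif1a and Eif4enif1 and without LYC2 for Eef1d and Eif3e, and for Eif1a also without HFD2. Depth limits low factors most: 1 read on a gene of 1 kb was worth 0.227 to 1.20 RPKM in HFD and 2.43 to 3.21 in LYC.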
